A study of Mus musculus with 33 samples.

Results

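The effect of losing the mitochondrial phosphatase Ptpmt1 was measured in mouse heart muscle that was also labelled as lacking the kinase Hri. Cardiomyocyte RNA of 2 double libraries, labelled as carrying a cardiomyocyte-specific knockout of Ptpmt1 together with an Hri knockout, was compared with that of 2 libraries labelled as carrying the Hri knockout alone. The tested genes were all those whose normalized count reached 10 in at least 2 of the 9 libraries of this line (named PHT in the titles), which kept 14965 of 32245 genes. The other 5 libraries of the line, 2 controls and 3 with the Ptpmt1 knockout only, entered the same fit. They give the effect of Ptpmt1 loss without the Hri knockout, so that the difference between both effects (the interaction) could be tested. The series holds 33 samples in all.

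The labels restrict the Hri knockout to cardiomyocytes in the single knockouts, whereas in the doubles they state that restriction for Ptpmt1 only. The sources used here do not give the Cre driver, the alleles, the age of the animals or how the cardiomyocytes were obtained. The molecule is labelled as nuclear RNA, and libraries were made after removal of ribosomal RNA. Nothing states that replicates were separate animals, so p-values measure the spread between these samples, which may be technical in part.

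Ptpmt1 sits in the mitochondrial inner membrane and dephosphorylates phosphatidylglycerol phosphate, a step towards cardiolipin, the lipid that the respiratory chain and the cristae depend on. Hri, encoded by Eif2ak1, is 1 of the kinases that phosphorylate the alpha subunit of the translation initiation factor eIF2. It responds to haem shortage and, through the mitochondrial protein Dele1, to mitochondrial stress. Phosphorylated eIF2 slows general translation but favours the translation of the transcription factors Atf4, Atf5 and Ddit3, which switch on genes of amino acid synthesis, amino acid import and tRNA charging. This programme is the integrated stress response. The comparison asks whether Ptpmt1 loss still brings the programme on in cells labelled Hri knockout.

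No stress response gene was called between the doubles and the labelled Hri knockouts. Of 14965 genes, 1 was called higher in the doubles (0.00668%) and 2 were called lower (0.0134%), at an adjusted p under 0.05 in limma. The 2 that fell were Ptpmt1 itself and Extl1, and the 1 that rose was Gm9008. At an unadjusted p under 0.05 there were 873 genes. In the line's own comparison without the Hri knockout, 42 genes rose with Ptpmt1 loss (0.281%), most of them stress response genes such as Asns, Atf5, Chac1 and Slc7a3. None of these 4 was called in the doubles, and for each of them the interaction was.

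The 9 libraries held between 10739569 and 19405261 reads in genes, with 12396266 and 14206506 in the doubles and 10776933 and 16944648 in the labelled Hri knockouts. The doubles stood apart in detection at like depth. They had reads in 17579 and 17716 genes against 18304 to 18703 in the others. Among 8040 genes of low mean, 41.5% and 43.2% had reads in the doubles and 50.4% to 55.4% elsewhere. The doubles were also the least alike pair of replicates, with a correlation of 0.972 over genes against 0.981 for the labelled Hri knockouts. All 4 libraries compared showed the male pattern of sex-linked genes, as did 1 of 3 Ptpmt1 knockouts and 0 of 2 controls, so the comparison itself is balanced for sex and the interaction is not. A term for sex rests on the 3 Ptpmt1 knockouts alone, and acts like leaving out their male-pattern replicate 1. These 2 alternatives are in effect 1, though each is counted below, and neither separates sex from the Hri label. The part that the lower detection has in single low genes was not tested.

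Ptpmt1 (chr2:90908716-90918258, minus strand, GRCm38) checks the labels of the doubles. Its normalized counts were 241 and 289 in the controls, 245 and 284 in the labelled Hri knockouts, 64.8, 41.7 and 40.0 in the Ptpmt1 knockouts, and 76.7 and 78.1 in the doubles. Both doubles lay below both labelled Hri knockouts. Ptpmt1 fell by 1.75 ± 0.24 (SE) on the log2 scale (limma adjusted p = 0.0231), which leaves 29.6% of the level with a 95% interval of 20.8% to 42.1%. Without the Hri knockout 18.4% remained (13.3% to 25.3%). The remaining level was nominally higher in the doubles, and the interaction of 0.69 ± 0.32 was not called (adjusted p = 0.998). The 3′ end of Kbtbd4 on the other strand overlaps that of Ptpmt1, and since the strand setting is not given, reads there cannot be assigned. Leaving out a library ended the call for Hri knockout replicate 1 (adjusted p = 0.058) and 2 (0.219), double replicate 2 (0.147), either control (0.0991 and 0.107) and Ptpmt1 knockout replicate 2 (0.0538), with a difference of -1.86 to -1.65 throughout. Kbtbd4 had 267 and 315 in the labelled Hri knockouts and 343 and 408 in the doubles (0.37, adjusted p = 0.788).

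The label of the Hri knockout could not be checked in the same way. Eif2ak1 had normalized counts of 548 and 590 in the controls, 416 and 389 in the libraries labelled Hri knockout, 630, 619 and 517 in the Ptpmt1 knockouts and 476 and 545 in the doubles. All 4 libraries labelled with an Hri knockout therefore held Eif2ak1 RNA. The doubles had 0.34 more than the single knockouts on the log2 scale without a call (95% interval 0.08 to 0.60, adjusted p = 0.785). The sources used here do not say which part of the gene was deleted, so a whole-gene count does not test the loss of the protein. Eif2s1, the eIF2 subunit that the kinase acts on, had 1045 and 1163 in the labelled Hri knockouts against 1131 and 1409 in the doubles, and the groups overlapped.

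**Figure D1:**
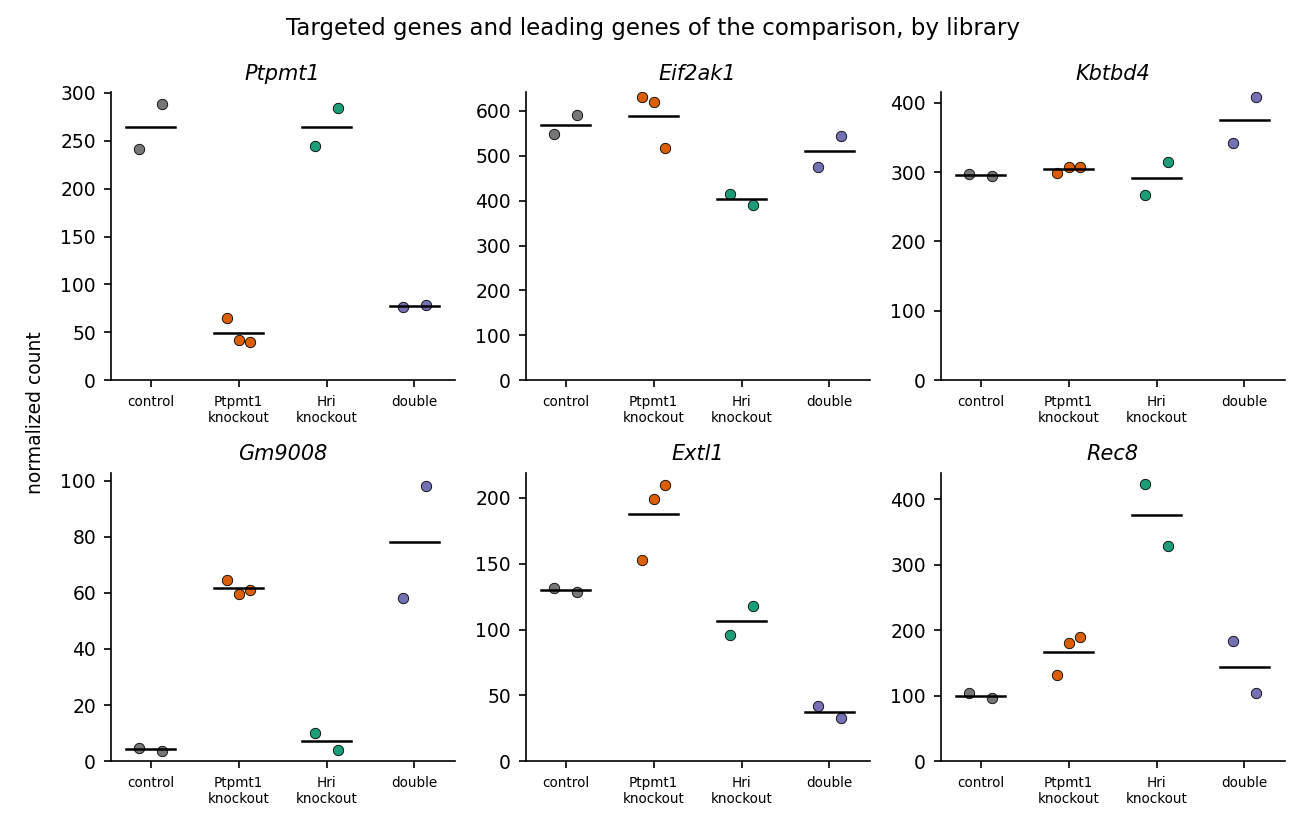
Normalized counts of 6 genes (y axis, from 0) in each of the 9 libraries, by group (x axis). Points are libraries and bars are group means. Ptpmt1 and Extl1 lie lower and Gm9008 higher in the doubles than in the labelled Hri knockouts, and Eif2ak1 is present in every library.

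Extl1 (chr4:134356372-134383850), a glycosyltransferase of the exostosin family that builds heparan sulfate chains, was the other gene that fell. It had 95.8 and 118 in the labelled Hri knockouts, 42.1 and 32.4 in the doubles, 132 and 129 in the control pair and 153, 200 and 210 in the Ptpmt1 knockouts. The doubles lay below the remaining 7 libraries. The difference was -1.50 ± 0.23 (adjusted p = 0.046), and that of Ptpmt1 loss without the Hri knockout was 0.51 (adjusted p = 0.981). The interaction of -2.01 ± 0.30 passed the test (adjusted p = 0.0141), so the response of Extl1 to Ptpmt1 loss differed between backgrounds in the main fit. The interaction call was lost without Hri knockout replicate 2, either control or Ptpmt1 knockout replicate 2 (adjusted p up to 0.128). With the count model of edgeR on recovered reads the fall itself missed the threshold (adjusted p = 0.0655). It also missed it without Hri knockout replicate 1 (0.06) or 2 (0.299), double replicate 2 (0.187), either control (0.179 and 0.181) or Ptpmt1 knockout replicate 2 (0.141) or 3 (0.0545).

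Gm9008 (chr6:76495432-76497784) was the gene that rose in the doubles, and it is named although the rule for named genes leaves clone names out. It was at 4.71 and 3.58 in the controls, 10.1 and 3.89 in the labelled Hri knockouts, 64.8, 59.5 and 61.0 in the Ptpmt1 knockouts and 58.4 and 98.1 in the doubles. All 5 libraries with the Ptpmt1 knockout lay above the other 4. Its rise of 3.38 ± 0.46 (adjusted p = 0.0231) stood beside 3.62 (adjusted p = 0.000496) without the Hri knockout, and the interaction was -0.24 ± 0.63. Among the 42 genes that rose with Ptpmt1 loss in the line, it was the 1 that kept at least 50 percent of its log2 difference in the doubles. GENCODE lists it as protein coding and RefSeq as a pseudogene, so reads of a similar gene may count towards it. In the separate FST line the difference with Ptpmt1 loss was -1.17 and was not called. That between the doubles and the Eif2a mutants there was 0.91 ± 1.43, also without a call (limma adjusted p = 0.873). The call in PHT was lost without Hri knockout replicate 2 (adjusted p = 0.181), double replicate 2 (0.187), either control (0.0991 and 0.107) or Ptpmt1 knockout replicate 2 (0.0939).

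Promoters of stress response genes were searched for the element that Atf4 and its C/EBP partners bind, since 42 genes rose together without the Hri knockout. The element was searched as TGATGNAA on both strands, in windows of 250 bases before to 50 after each start, from RefSeq on GRCm38. Of the 42 genes that rose without the Hri knockout 32 had a window, and 12 of those (37.5%) held a match, against 4.51% of 27025 genes in all. Of the 18 genes whose interaction was called 14 had a window and 4 held a match (28.57%). The antioxidant element TGACNNNGC, on both strands, was matched in 10 of the 32 (31.25%) against 13.99% of all genes. The endoplasmic reticulum stress element ERSE, also on both strands, was matched in 0 of the 32 against 0.14%. No match of one motif overlapped a match of another in these windows. A match is a description of letters and not a site of binding. The sequences that follow, read on the strand of the gene, show the match of TGATGNAA or its complement in capitals for 3 of these 4 genes, at chr2:119351023-119351082 (plus), chr6:7693210-7693258 (minus) and chr8:94386291-94386350 (plus).
Chac1: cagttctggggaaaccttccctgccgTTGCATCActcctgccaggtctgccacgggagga
Asns: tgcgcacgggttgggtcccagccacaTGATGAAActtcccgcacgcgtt
Herpud1: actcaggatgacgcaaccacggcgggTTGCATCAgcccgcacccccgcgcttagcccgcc

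No regulator of the stress response was called between doubles and labelled Hri knockouts, and 2 of 16 had a called negative interaction, against 0.114% of all genes. Atf4, its main transcription factor, had 1114 and 1128 in the labelled Hri knockouts and 1051 and 1188 in the doubles, a difference of -0.01 with a 95% interval of -0.28 to 0.27. In the Ptpmt1 knockouts it had 1744, 1964 and 2466 against 1116 and 1119 in the controls (0.87, adjusted p = 0.00191). The interaction of Atf4 missed the threshold (-0.87 ± 0.17, adjusted p = 0.0926). It was called in 3 of 19 alternatives, which were a term for sex, Ptpmt1 knockout replicate 1 left out, and DESeq2 on recovered reads. The first 2 of these are in effect the same alternative. Atf5, a related factor linked to the mitochondrial unfolded protein response, had 158 and 213 in the labelled Hri knockouts, 162 and 175 in the doubles, 183 and 157 in the control pair and 643, 751 and 972 in the Ptpmt1 knockouts. Its interaction was -2.31 ± 0.26 (adjusted p = 0.00186). For both genes the libraries labelled Ptpmt1 knockout only stood above the other 6.

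Chac1, an enzyme that degrades glutathione and a strong Atf4 target, had the largest interaction estimate of the genes called. It was at 10.1 and 7.01 in the labelled Hri knockouts and at 1.08 and 0 in the doubles, or 17 reads against 1, and at 111, 176 and 221 in the Ptpmt1 knockouts against 0.942 and 2.39 in the controls. The doubles lay below both labelled Hri knockouts, but the difference of -2.71 ± 0.61 was not called (adjusted p = 0.498). The ratio of the recovered reads, labelled Hri knockouts over doubles, was 16.2 with a counting interval of 2.53 to 676. The interaction was -8.71 ± 0.82 (adjusted p = 0.00049). Ddit3 and Trib3, a factor and a pseudokinase of the same arm, both overlapped between the groups. Ddit3 had 124 and 98.1 in the labelled Hri knockouts against 109 and 107 in the doubles, and Trib3 had 26.5 and 14.0 against 18.4 and 51.4. Their interactions of -1.37 ± 0.32 (adjusted p = 0.276) and -2.92 ± 0.64 (adjusted p = 0.169) were not called. Sesn2, an inhibitor of mTORC1 signalling, had 271 and 348 in the labelled Hri knockouts and 222 and 206 in the doubles (-0.52, adjusted p = 0.754), against 401, 435 and 567 in the Ptpmt1 knockouts. Its interaction was -1.24 ± 0.23 (adjusted p = 0.0507), and it was called in 5 of 19 alternatives, DESeq2 among them. The 5 also include a term for sex and Ptpmt1 knockout replicate 1 left out, which are in effect the same alternative.

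Among enzymes of amino acid and one-carbon synthesis, 5 of 15 tested genes had a called negative interaction (0.114% of all genes) and none was called between the doubles and the labelled Hri knockouts. Asns, asparagine synthetase, had 1121, 1341 and 1638 in the Ptpmt1 knockouts, 292 and 320 in the controls, 226 and 308 in the labelled Hri knockouts and 223 and 310 in the doubles. The doubles and the labelled Hri knockouts covered the same range. The difference of -0.00 had a 95% interval of -0.41 to 0.40, and the interaction was -2.14 ± 0.26 (adjusted p = 0.00315). Mthfd2, a folate enzyme of mitochondria, had 359 and 406 in the labelled Hri knockouts and 313 and 374 in the doubles against 1005, 1230 and 1505 in the Ptpmt1 knockouts. Its interaction was -1.84 ± 0.23 (adjusted p = 0.00407). Aldh1l2, which oxidises mitochondrial formyl folate, followed with -1.58 (adjusted p = 0.0043). Phgdh, the first enzyme of serine synthesis, had 619 and 618 in the labelled Hri knockouts and 579 and 740 in the doubles, with an interaction of -1.18 (adjusted p = 0.0141). Shmt2, the mitochondrial serine hydroxymethyltransferase, had 953 and 977 against 746 and 820 in the doubles, so that the doubles lay lower without a call (-0.30, adjusted p = 0.78). Its interaction was -0.99 (adjusted p = 0.0098). Psat1, which acts after Phgdh, had -0.61 (adjusted p = 0.487).

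Of 11 amino acid carriers, 2 had a called negative interaction (0.114% of all genes) and none was called in the doubles. Slc7a3, a carrier of cationic amino acids, had 5.04 and 9.35 in the labelled Hri knockouts, 11.9 and 4.76 in the doubles, 16.0 and 14.3 in the control pair and 237, 311 and 377 in the Ptpmt1 knockouts. The interaction was -4.11 ± 0.59 (adjusted p = 0.0103). Slc7a5, the large neutral amino acid carrier, had 620 and 562 in the labelled Hri knockouts and 532 and 534 in the doubles, with 1259, 1223 and 1622 in the Ptpmt1 knockouts (interaction -1.25, adjusted p = 0.006). Slc7a11, the cystine carrier, had 3.78 and 10.1 against 16.2 and 1.91 in the doubles, and its interaction of -4.33 ± 0.96 was not called (adjusted p = 0.182). Slc6a9, a glycine carrier, lay higher in both doubles (284 and 295) than in both labelled Hri knockouts (237 and 196), with a difference of 0.42 that was not called (adjusted p = 0.758). Of 20 cytosolic tRNA synthetases, Sars alone had a called interaction (-0.71 ± 0.12, adjusted p = 0.0378), which was lost in 10 of 19 alternatives, the sex term among them (0.114% of all genes had a negative call). It had 1055 and 1039 in the labelled Hri knockouts, 1016 and 1085 in the doubles and 1703, 1717 and 1865 in the Ptpmt1 knockouts.

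**Figure D2:**
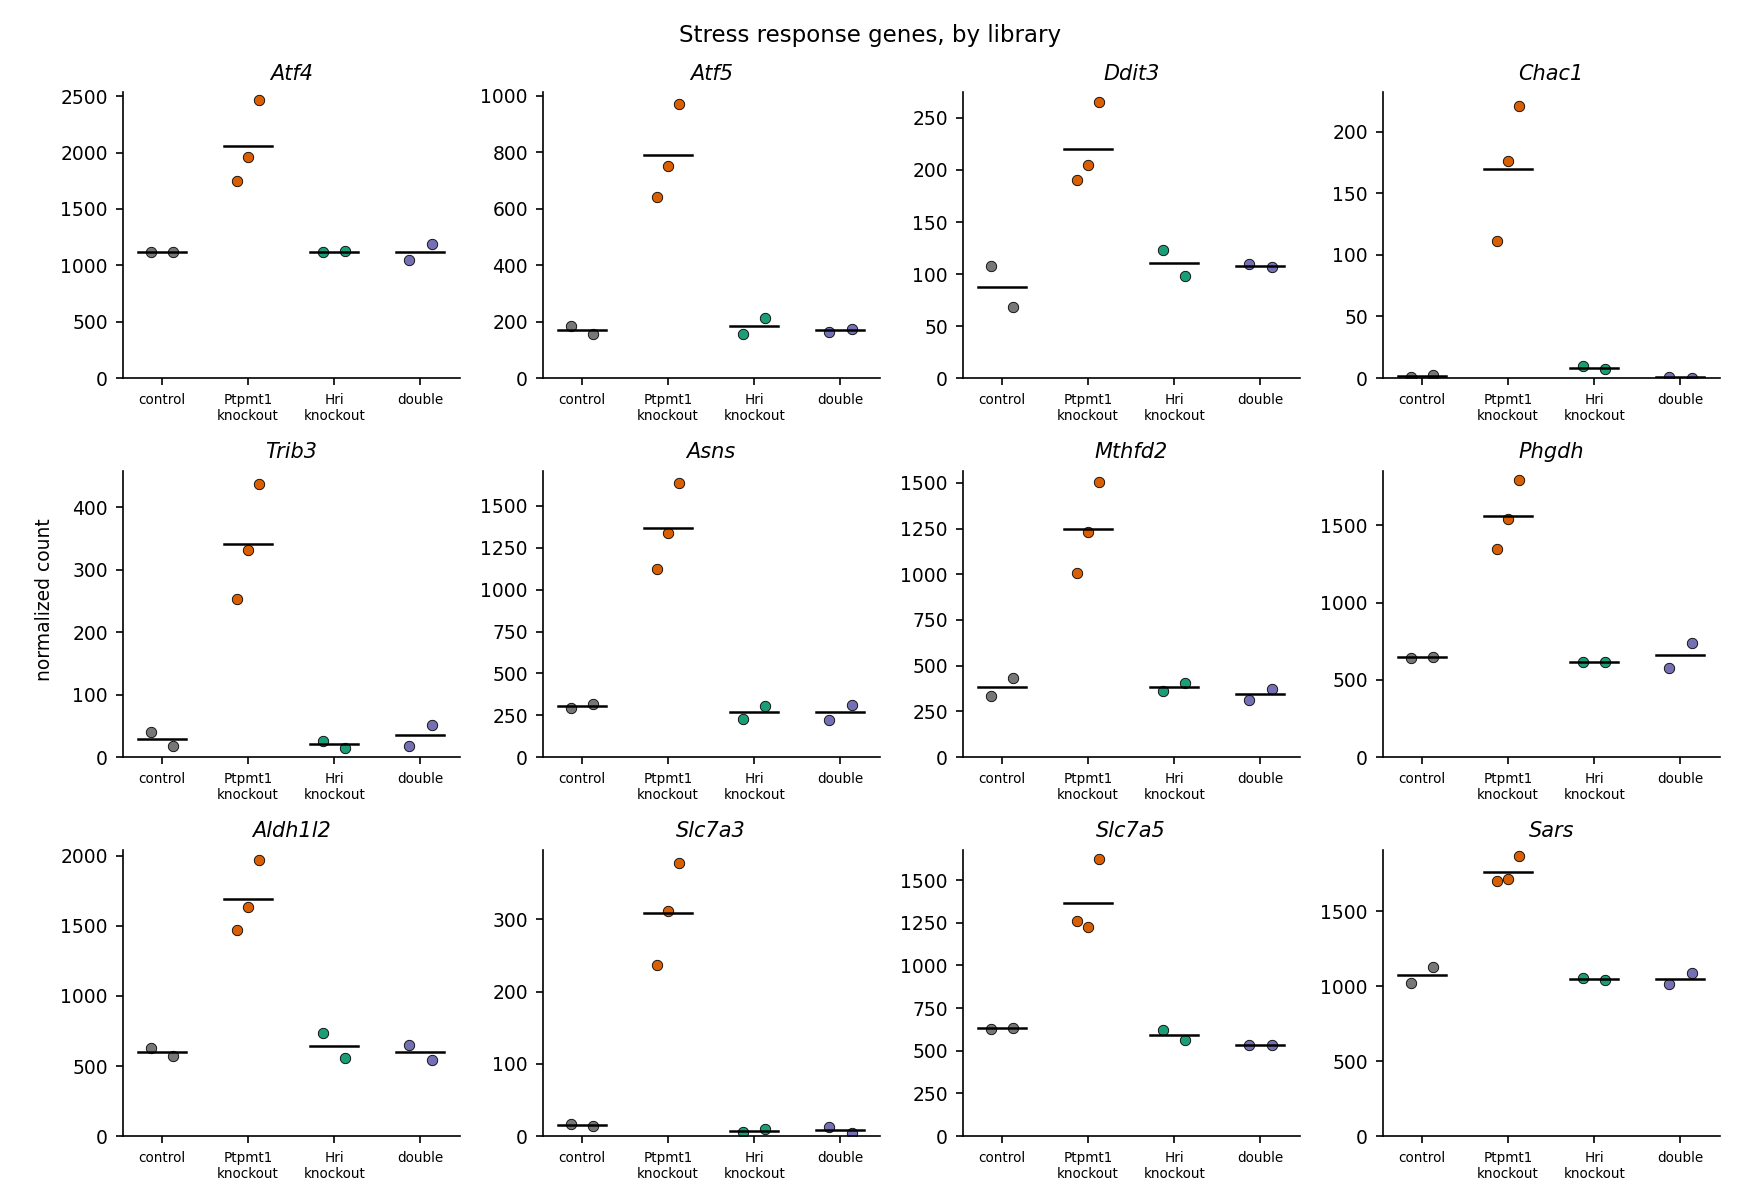
Normalized counts of 12 stress response genes (y axes, from 0) in each library, by group (x axis). Points are libraries and bars are group means. The 3 Ptpmt1 knockouts lie above every other library in all 12 panels, and the doubles lie near the controls and the labelled Hri knockouts.

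Together, the 4 stress response lists (regulators, enzymes of synthesis, carriers and cytosolic tRNA synthetases) held 62 tested genes. Between doubles and labelled Hri knockouts 0 of them were called, 30 were positive, and the median log2 difference was -0.00, as over all genes tested (-0.00). At an unadjusted p under 0.05 there were 5, and edgeR and DESeq2 also called 0. In 10 the 2 doubles lay above both labelled Hri knockouts and in 10 below, where over all genes such a gap occurred in 15.6% upwards and 15.6% downwards. Without the Hri knockout, Ptpmt1 loss raised 28 of the 62 against 0.281% of all genes, with a median of 0.59. The share of the total signal held by these genes was 0.382% and 0.404% in the labelled Hri knockouts and 0.386% and 0.414% in the doubles. It was 0.392% in both controls and 0.509%, 0.557% and 0.596% in the Ptpmt1 knockouts.

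For each of the 28 list genes that rose without the Hri knockout, the upper 95% bound of the difference in the doubles lay below the estimate without it. That comparison leaves out the error of the estimate and is not a test. The interaction, which tests the difference in limma, was called for 10 of the 28. It was not called for others, such as Slc6a9 (adjusted p = 0.998) and Gars (0.599). These 28 are part of the 42 genes that rose, and as the 42 were chosen on that difference, their estimates there may be high. The doubles and the labelled Hri knockouts did not enter that difference, but they entered the shared spread and the filter behind the calls. Between doubles and labelled Hri knockouts 19 of the 42 were positive with a median of -0.00. Of the 42, 9 lay higher without overlap and 8 lower (15.6% of all genes each way). A list chosen in the FST line, the 45 genes that rose with Ptpmt1 loss there, gave 26 positive values and a median of 0.04 in the doubles against the labelled Hri knockouts. Of these 45, 13 lay higher without overlap and 4 lower, against 15.6% of all genes each way.

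**Figure D3:**
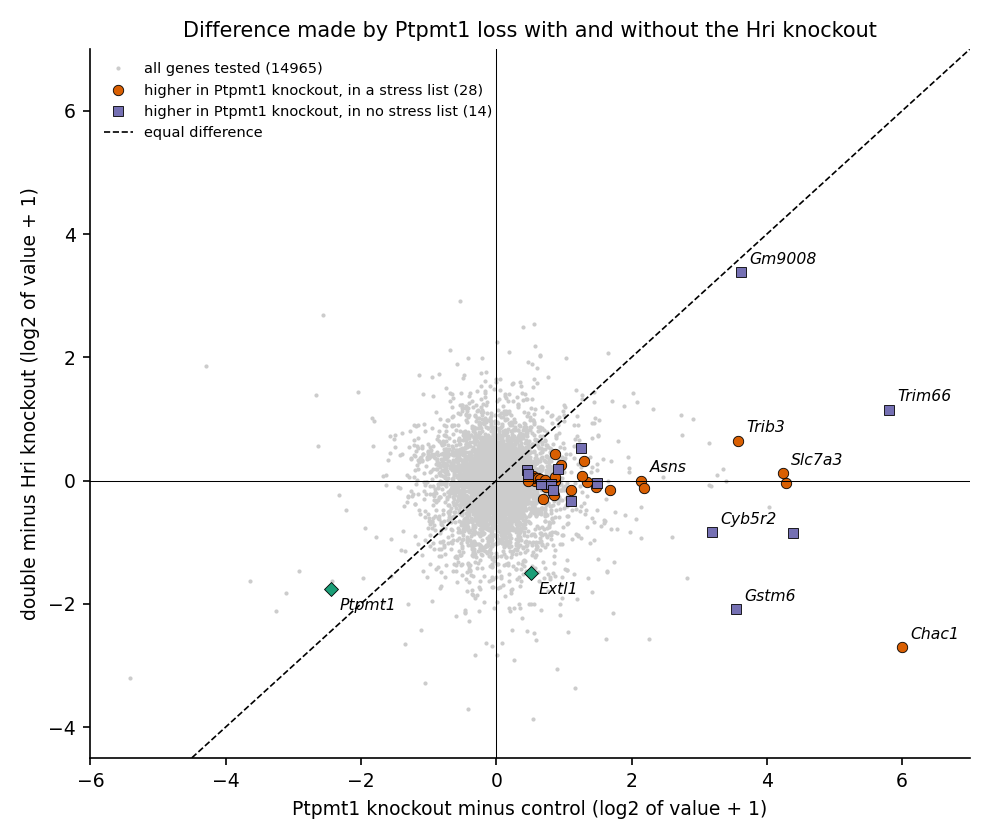
Difference made by Ptpmt1 loss without the Hri knockout (x axis) against that with it (y axis), both as log2 of value + 1, for 14965 genes. Circles and squares are the 42 genes that rose without the Hri knockout, the dashed line is equal difference, and diamonds mark Ptpmt1 and Extl1. Gm9008 lies near the line at 3.62 and 3.38, while Asns lies at 2.14 and -0.00.

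The interaction was called for 18 genes, 1 positive (0.00668%) and 17 negative (0.114%), with 694 at an unadjusted p under 0.05. Of these 18 genes, 10 are in the 4 lists. Without control replicate 1 the 2 calls left were Chac1 and Atf5, while Asns, Mthfd2, Aldh1l2 and Shmt2 had 0.0532 each. There were 8 calls without control replicate 2, 7 without Ptpmt1 knockout replicate 2 and 9 without Hri knockout replicate 2. Outside them, Bcat1, a cytosolic branched-chain aminotransferase, had 190 and 197 in the labelled Hri knockouts and 177 and 202 in the doubles (interaction -1.53, adjusted p = 0.0141). Herpud1, a protein of endoplasmic reticulum quality control, had 377 and 404 against 342 and 410 (interaction -0.87, adjusted p = 0.0495). Cyb5r2, a cytochrome b5 reductase, had 5.04 and 5.45 against 2.16 and 2.86 in the doubles, and 79.7, 80.7 and 91.0 in the Ptpmt1 knockouts (interaction -4.03, adjusted p = 0.0378). In these 3 genes the Ptpmt1 knockouts alone were high. The call was lost in 13 of 19 alternatives for Herpud1 and in 11 of 18 for Cyb5r2, edgeR among them for both. With a term for sex, 6 of the 18 calls were lost, which were Cyb5r2, Sars, Gstm6, Herpud1, 2410018L13Rik and AC149090.1. The same 6 were lost without Ptpmt1 knockout replicate 1, to which that term is in effect equal. Atf4 and Sesn2 were among the genes that gained a call with that term.

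A second arrangement was seen in Rec8, Gstm6 and 2410018L13Rik, whose labelled Hri knockouts were themselves above the controls. Chac1 shared this at few reads, 17 against 3 (ratio 5.18, counting interval 1.5 to 27.6). Rec8, a cohesin subunit of meiosis, had 424 and 328 in the labelled Hri knockouts, 184 and 104 in the doubles, 104 and 96.6 in the control pair and 131, 180 and 190 in the Ptpmt1 knockouts. The doubles lay lower without a call (-1.43, adjusted p = 0.143), and the interaction was -2.14 ± 0.34 (adjusted p = 0.0201). Gstm6, a glutathione transferase of a family with similar members, had 36.6 and 32.7 in the labelled Hri knockouts and 17.3 and 2.86 in the doubles, against 1.88 and 0 in the controls. For 2410018L13Rik the values were 137 and 158 in the labelled Hri knockouts and 63.8 and 8.57 in the doubles, against 14.1 and 19.1 in the controls. AC149090.1, the positive one, differed between the doubles themselves (1669 and 512) and had 551 and 382 in the labelled Hri knockouts. Without the Hri knockout, Ptpmt1 loss gave -1.84 for AC149090.1 (adjusted p = 0.0182) and 3.54 for Gstm6 (0.0378). These calls were lost in 5 of 19 and 12 of 18 alternatives. For 2410018L13Rik it gave 2.25 (0.17) and for Rec8 0.71 (0.694), both without a call. The interaction call was lost in 14 of 18 alternatives for Gstm6 and in 5 of 19 for Rec8. It was lost in 9 of 19 for 2410018L13Rik and in 9 of 19 for AC149090.1. Leaving out either labelled Hri knockout or either control ended the call for Gstm6, Rec8, 2410018L13Rik and AC149090.1 alike.

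**Figure D4:**
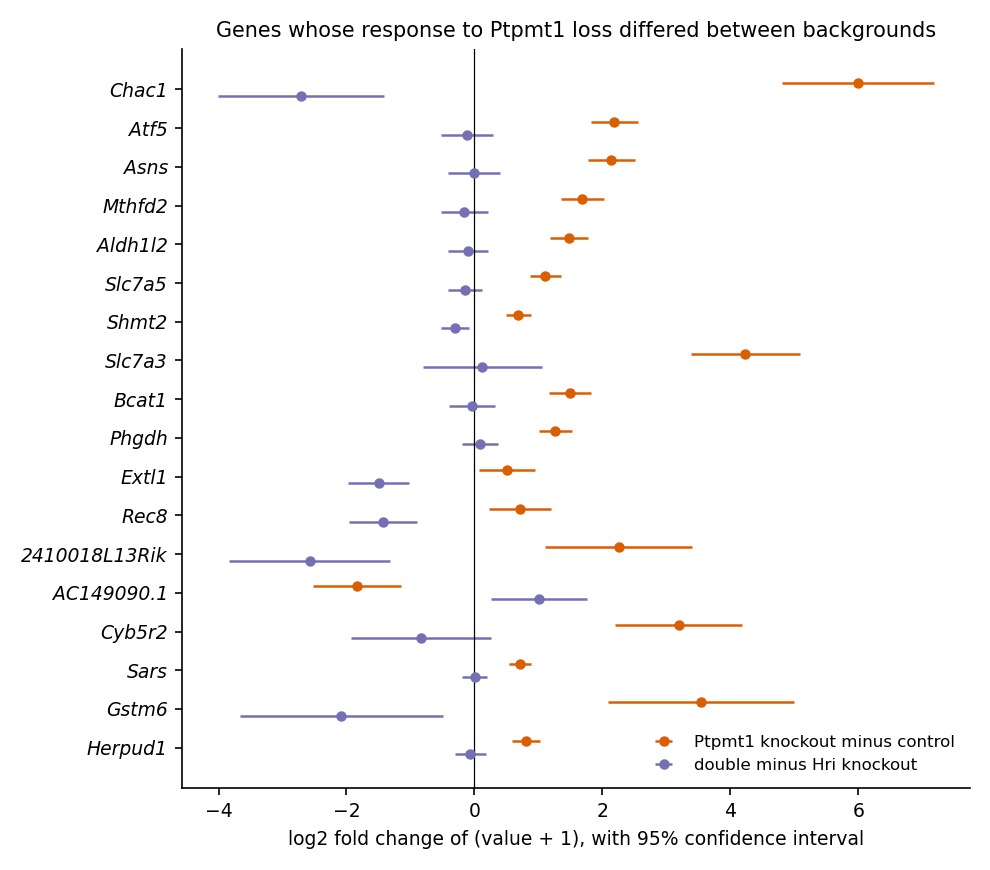
Log2 fold change of value + 1 (x axis) with its 95% confidence interval for the 18 genes with a called interaction (y axis), for Ptpmt1 loss without the Hri knockout and for doubles against labelled Hri knockouts. Atf5 lies at 2.19 and -0.12 and Asns at 2.14 and -0.00.

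Beyond the stress response, the genes nearest to a call are given as values only, since none passed the test. Among those higher in the doubles, the histone gene Hist1h4c had 1024 and 1114 in the labelled Hri knockouts and 1480 and 1708 in the doubles (0.57, adjusted p = 0.0914). Tagln, an actin-binding protein of smooth muscle and of developing heart, had 2340 and 2100 against 3253 and 3316 (0.57, adjusted p = 0.244). Hsp90aa1, an inducible cytosolic chaperone, had 6989 and 7476 against 9062 and 10030 (0.40, adjusted p = 0.651). Socs2, an inhibitor of cytokine signalling, had 285 and 240 against 471 and 347. Tagln and Socs2 also lay high in the Ptpmt1 knockouts, at 2754, 3215 and 3429 for Tagln and 419, 414 and 412 for Socs2. DESeq2 on recovered reads called 11 genes, which were Ptpmt1, Extl1, Gm9008, Hist1h4c, Tagln, Hsp90aa1, Rnf17, Amph, Rec8, mt-Cytb and mt-Nd5.

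Among those lower in the doubles, Gprin3 had 524 and 580 in the labelled Hri knockouts and 392 and 324 in the doubles (-0.63, adjusted p = 0.43). Trib2, a pseudokinase, had 1646 and 1647 against 1268 and 1244 (-0.39, adjusted p = 0.651). Ddb2 (chr2:91211572-91236982), a sensor of ultraviolet DNA damage, had 97.1 and 92.7 against 50.8 and 40.0 (-1.06, adjusted p = 0.651). With Ptpmt1 loss without the Hri knockout its difference was -0.22 (adjusted p = 0.999). In all 3 the groups did not overlap, as for 15.6% of all genes in that direction.

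In the other lists Ptpmt1 was the only called member. Over all genes 7333 of 14965 were positive, the median was -0.00, and the groups did not overlap in 15.6% upwards and 15.6% downwards, to be read beside each count here. Of 13 cardiolipin genes, Ptpmt1 included, 11 were positive with a median of 0.05 and a highest value of 0.63, and 3 lay higher without overlap. Crls1, cardiolipin synthase, had 212 and 203 in the labelled Hri knockouts and 254 and 224 in the doubles, and Tamm41, which makes CDP-diacylglycerol in mitochondria, overlapped. Of 13 immediate early genes 1 was positive, the median was -0.18, and 7 lay lower without overlap (15.6% of all genes). Fos had 92.0 and 138 against 67.0 and 56.2 in the doubles (-0.87, adjusted p = 0.754), and Nr4a1 had 306 and 284 against 251 and 177.

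Mitochondrially encoded genes had a median of -0.27 over 13, with 6 lower and 3 higher without overlap (15.6% of all genes each way, median -0.00). Cytochrome b, mt-Cytb, had 35200 and 32820 in the labelled Hri knockouts and 25730 and 25720 in the doubles (-0.40, adjusted p = 0.754), near the controls at 26620 and 30500. Of 17 mitochondrial tRNA synthetases 4 were positive and 8 lay lower without overlap (15.6% of all genes), such as Iars2 with 1601 and 1699 against 1370 and 1448. Log2 differences in that list ran from -0.99 to 0.15, and 0 were called. Nuclear-encoded subunits of complexes II to V had 28 of 42 positive values and a median of 0.03. Cox6a2, the heart and muscle form of a cytochrome oxidase subunit, had 251 and 250 against 303 and 432 in the doubles (0.53, adjusted p = 0.754), and 584, 533 and 612 in the Ptpmt1 knockouts. Of 21 genes of the endoplasmic reticulum stress response, 14 were positive, 7 lay higher without overlap and 0 lower (15.6% of all genes each way), and 0 were called. Hspa5, its main chaperone, had 6938 and 8721 against 9233 and 9224.

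Cardiac stress genes gave no call. Nppa, atrial natriuretic peptide, had 14900 and 18670 in the labelled Hri knockouts and 14750 and 17540 in the doubles. Nppb had 1196 and 1479 against 1522 and 2009 (0.39, adjusted p = 0.857), and Myh7, the slow myosin heavy chain, had 148500 and 128800 against 141200 and 135800. Gdf15, a hormone of mitochondrial stress, had 10.1 and 2.34 against 7.57 and 16.2, with an interval of -0.75 to 2.74 that does not limit it.

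Cardiomyocyte markers held 6.13% and 5.04% of the signal in the labelled Hri knockouts and 5.30% and 4.78% in the doubles, and 0 of 15 were called. All 11 erythroid markers tested were positive in the doubles (median 0.39), with 1 higher without overlap (15.6% of all genes). Their share was 0.475% and 0.333% in the labelled Hri knockouts against 0.392% and 0.692% in the doubles. In the controls it was 0.369% and 0.31%. Among the Ptpmt1 knockouts the erythroid share ran from 0.0557% to 0.263%. Fibroblast markers were 0.176% and 0.179% against 0.181% and 0.194%, endothelial markers 0.127% in both against 0.116% and 0.119%, and 0 of 8 lymphocyte markers reached the level for testing. No marker list had a called member. In bulk samples fewer cells of a type and less RNA per cell cannot be told apart, and the part of these shares in the results above was not tested.

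**Figure D5:**
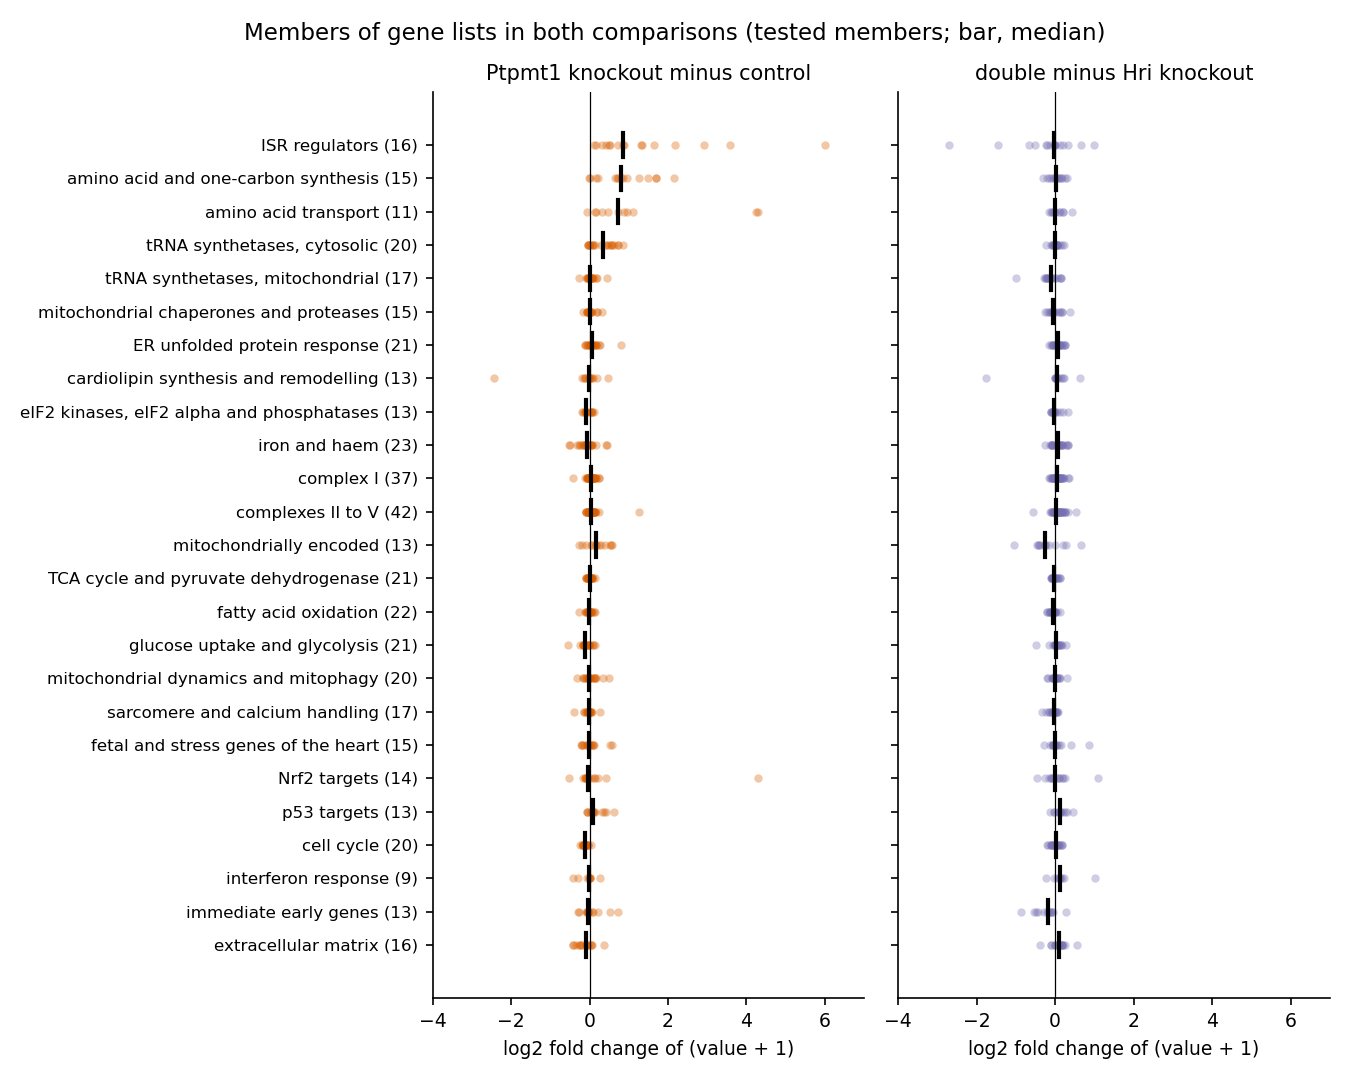
Log2 fold change of value + 1 (x axes) of every tested member of 25 gene lists (y axis, with the number tested) for Ptpmt1 loss without the Hri knockout (left) and for doubles against labelled Hri knockouts (right). Points are genes and bars are list medians. The first 4 lists lie right of 0 on the left, with medians of 0.86, 0.79, 0.73 and 0.35, and at -0.03, 0.03, 0.01 and 0.00 on the right.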

How the data were processed

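The deposited signal is the authors' normalized count per gene and library. The submitters' processing notes name the tools STAR 2.5.3a and DESeq2 1.12.4 and the build mm10, without their roles. Counter, annotation and strand were not given in the sources used here. Dividing each column of this deposited signal by its smallest step gave whole reads within 0.1 for 100% of values, which gave the depths. Each table lists genes by symbol, 26 of them turned into dates, and 0 columns lacked a sample.

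The test was limma 3.58.1 (R 4.3.3) on log2(value + 1) with an intensity trend, over all 9 PHT libraries, which leaves 5 residual degrees of freedom, two-sided, with Benjamini-Hochberg adjustment over 14965 genes and a threshold of 0.05. Fold changes on this scale understate changes of low genes. The 12 FST libraries were normalized and fitted separately (13896 genes), so no test crosses the tables. An exact permutation test of 2 against 2 libraries cannot go below 0.333. edgeR 4.0.16 and DESeq2 1.42.0 on recovered reads, other pseudocounts, filters and scalings, a sex term, a robust prior and each library left out were alternatives. The scripts were tested on simulated data. Intervals on read ratios cover counting error only.

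Named genes were the targeted genes, a panel of stress and cardiac genes, called genes whose higher group averaged 50 or more (filled to 8 per direction by p), up to 4 members per list and 6 by interaction p. Genes outside this rule are Gm9008, 2410018L13Rik, AC149090.1, Bcat1, Gstm6, Herpud1, Sars and Kbtbd4, chosen after their values were seen. Positions are from GENCODE vM21, promoters from RefSeq. Members and lists were chosen with earlier results of these data known.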

Additional observations from a re-analysis of the deposited data

Results flagged for a closer look

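The response to Ptpmt1 loss differed between the backgrounds, by limma's test of the difference itself, in 18 genes. The log2 values are the difference with the Hri knockout minus that without it. Stress response genes were Chac1 at -8.71, Atf5 at -2.31, Asns at -2.14, Mthfd2 at -1.84, Aldh1l2 at -1.58, Slc7a5 at -1.25, Shmt2 at -0.99, Slc7a3 at -4.11, Phgdh at -1.18 and Sars at -0.71. Outside those lists were Bcat1 at -1.53, Extl1 at -2.01, Rec8 at -2.14, 2410018L13Rik at -4.83, Cyb5r2 at -4.03, Gstm6 at -5.63, Herpud1 at -0.87 and AC149090.1 at 2.85. Chac1 and Atf5 kept their call under each of the 19 alternatives run for the interaction, with adjusted p up to 0.0101 and 0.0225. Herpud1 and Gstm6 stood closest to the threshold at 0.0495. Cyb5r2, Sars, Gstm6, Herpud1, 2410018L13Rik and AC149090.1 lost their call when sex was a term of the fit. That term acts like leaving out Ptpmt1 knockout replicate 1, and it cannot separate sex from the Hri label.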

How the results depend on the processing

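The 3 calls between doubles and labelled Hri knockouts depended on the processing. There were 0 without a filter on low values, 0 with a mean of at least 50, 0 with the 4 libraries fitted alone and 11 with DESeq2, and 0 to 10 when 1 library was left out (10 without double replicate 1, 7 without Hri knockout replicate 1, 0 without Hri knockout replicate 2, 1 without double replicate 2, 0 without either control or without Ptpmt1 knockout replicate 2). Ptpmt1 kept its direction throughout, between -1.86 and -1.65, with adjusted p up to 0.219. Gm9008 had adjusted p up to 0.372 and Extl1 up to 0.878. The 18 interaction calls became 38 with DESeq2 and 2 to 22 when 1 library was left out (2 without control replicate 1, 8 without control replicate 2, 7 without Ptpmt1 knockout replicate 2, 9 without Hri knockout replicate 2). With a sex term there were 17, of which 12 were shared, and the fit without Ptpmt1 knockout replicate 1 gave the same counts. Cyb5r2, Sars, Gstm6, Herpud1, 2410018L13Rik and AC149090.1 lost their call there, while Atf4 and Sesn2 were among those that gained one. The cause of these shifts was not tested. Over 3920 values of named genes under 20 settings, 0 called values reversed and 70 uncalled ones changed sign. No paired analysis was possible because the labels give the groups no shared replicate numbers. Gdf15, at 2.34 to 16.2 in the 4 libraries compared, has an interval of -0.75 to 2.74, and no detection limit was measured.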
